A study of Mus musculus with 8 samples.

Results

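The cholesterol synthesis and SREBP genes followed here are 26 genes of the 33696 in the count matrix. They were chosen by name, with earlier results of these data known. They comprise 19 enzymes that carry carbon from acetyl-CoA to cholesterol or to isoprenoids, 5 genes of the SREBP control system and 2 genes that act beside them. All 26 symbols were found, each on 1 row, and no member was used to sort cells into classes. The enzymes of the mevalonate steps are Acat2, Hmgcs1, Mvk, Pmvk, Mvd and Idi1. Fdps and Ggps1 make the longer isoprenoids. Fdft1, Sqle and Lss make squalene and lanosterol, and Cyp51, Tm7sf2, Msmo1, Nsdhl, Hsd17b7, Ebp, Sc5d and Dhcr7 turn lanosterol into cholesterol. The control genes are Srebf1, Srebf2, Scap, Insig1 and Insig2. Stard4 encodes a soluble sterol carrier, and Lpin1 a phosphatidate phosphatase.

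The study profiled single epithelial cells of mouse colon and cecum by split-pool barcoding, under a title about how nicotinic acid from gut microbes bears on the identity of colon regions and on injury. The labels name 4 conditions in each tissue, with 4 numbered samples each: Abx_4D, Abx_14D, GF and Ctrl. Abx and GF are the field's usual short forms of antibiotics and germ-free. What 4D and 14D stand for, which agents were given, and the strain and age of the mice could not be taken from the labels, and no genetic change is named for any group. All groups share the preparation: cells were pooled by condition and EPCAM+ CD45- cells were sorted in equal parts from CD44+ and CD44- gates, so the proportions of cell classes partly reflect the mixing. Whether each numbered sample is its own animal is not stated, so p-values speak only of the spread among them, and that spread may be technical.

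Cells with at least 500 transcripts numbered 15916 of 24609 barcodes and held 99.7% of 259517245 transcripts. In colon, Ctrl kept 50 cells and Abx_4D kept 1026, of which 857 came from 1 sample, so conditions in colon were compared only between GF and Abx_14D. The samples compared held 1821737 to 15414170 transcripts each in cecum, and 6613124 to 30127065 each in colon GF and Abx_14D. In 4 cecal samples (Abx_4D 2, Abx_14D 3, Abx_14D 4 and GF 4) the median cell had over 0.5% mitochondrial transcripts. Colon Abx_4D 1 was also over that limit, at 0.572%. It entered only the colon tests between classes, which have n = 9. Results that changed when these were left out are given with and without them.

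As background, cholesterol is built in the endoplasmic reticulum from acetyl-CoA through mevalonate, farnesyl diphosphate, squalene and lanosterol. SREBP transcription factors, held in that membrane by the escort protein SCAP and the INSIG retention proteins when sterol is plentiful, are released by proteolysis when it is scarce and switch on most enzymes of the route. SREBP-2, the product of Srebf2, acts mainly on cholesterol genes and SREBP-1, the product of Srebf1, mainly on fatty acid genes. The renewing epithelium of the large intestine needs sterol for the membranes of dividing cells and of mature absorptive cells, which also take up lipid.

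The promoters of 5 members are shown because these genes are among those with the main contrasts below: Hmgcs1, Cyp51, Msmo1 and Insig1 were low in stem-like cells, and Lpin1 went the other way. Fdps and Sqle also had large contrasts, but no promoter was matched for them. The stretches are the 250 bases before the RefSeq gene start on build GRCm38.p6. Capitals mark a sterol regulatory element (TCACNCCAC, or its shorter form TCACNCCA, which it contains), a CCAAT box or an E box (CACGTG), searched on both strands. They lie at chr13:119690101-119690350 (plus strand, Hmgcs1), chr5:4104698-4104947 (minus strand, Cyp51), chr8:64733579-64733828 (minus strand, Msmo1), chr5:28071162-28071411 (plus strand, Insig1) and chr12:16610967-16611216 (minus strand, Lpin1).
Hmgcs1: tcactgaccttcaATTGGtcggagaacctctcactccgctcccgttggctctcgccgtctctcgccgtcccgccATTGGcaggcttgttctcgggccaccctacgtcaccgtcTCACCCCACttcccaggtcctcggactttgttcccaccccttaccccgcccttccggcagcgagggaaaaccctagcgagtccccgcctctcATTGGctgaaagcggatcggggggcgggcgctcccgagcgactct
Cyp51: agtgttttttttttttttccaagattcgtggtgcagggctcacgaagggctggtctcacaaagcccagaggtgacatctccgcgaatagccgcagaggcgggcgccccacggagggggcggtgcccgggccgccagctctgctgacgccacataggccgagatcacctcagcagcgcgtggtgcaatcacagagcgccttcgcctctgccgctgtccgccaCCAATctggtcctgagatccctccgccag
Msmo1: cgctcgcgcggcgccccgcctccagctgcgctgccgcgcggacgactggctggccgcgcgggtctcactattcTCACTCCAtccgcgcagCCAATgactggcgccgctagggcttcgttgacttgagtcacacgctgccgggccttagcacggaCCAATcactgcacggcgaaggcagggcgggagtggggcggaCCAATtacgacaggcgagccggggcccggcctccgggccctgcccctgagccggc
Insig1: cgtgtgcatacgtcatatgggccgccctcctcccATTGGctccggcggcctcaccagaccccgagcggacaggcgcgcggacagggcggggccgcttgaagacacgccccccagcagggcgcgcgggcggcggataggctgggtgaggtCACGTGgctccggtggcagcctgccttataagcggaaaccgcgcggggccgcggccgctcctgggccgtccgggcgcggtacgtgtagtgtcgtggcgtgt
Lpin1: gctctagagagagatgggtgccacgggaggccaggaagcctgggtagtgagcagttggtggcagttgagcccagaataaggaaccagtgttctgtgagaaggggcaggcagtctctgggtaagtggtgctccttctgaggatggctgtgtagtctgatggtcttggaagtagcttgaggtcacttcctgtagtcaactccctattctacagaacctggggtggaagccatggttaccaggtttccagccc

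Hmgcs1 held the longer sterol element 137 bases before its start and a CCAAT box at 237, 176 and 45 bases. Msmo1 held the shorter element at 177 bases and CCAAT boxes at 160, 96 and 55 bases. Cyp51 held 1 CCAAT box at 29 bases, and Insig1 held a CCAAT box at 216 bases and an E box at 101 bases. None of the 3 motifs was in the Lpin1 window. RefSeq promoters were matched for 22 of the 26 members, and not for Fdft1, Fdps, Sqle and Stard4. A CCAAT box was present for 19 of these 22 members, against 37.5% of 27025 genes and 33.8% of 32851 promoters. The motif GGGCGG was also present for 19 of 22, against 35.4% of genes and 32.7% of promoters, and CACGTG for 5 of 22, against 6.86% of genes and 6.02% of promoters. The element TCACNCCA was present for 3 of 22 members (Hmgcs1, Msmo1 and Srebf2), against 4.2% of genes and 3.67% of promoters. Its longer form TCACNCCAC was present for 1 of 22, against 1.22% of genes and 1.05% of promoters. A match describes letters in the window only.

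Cells were placed in classes by their share of transcripts from marker genes. Absorptive-like cells had at least 50 per 10000 from absorptive markers, dividing cells at least 20 per 10000 from cell cycle markers, and stem-like cells at least 20 per 10000 from stem cell markers with under 5 from cell cycle markers. Near a threshold, from 20% below it to somewhat more than 20% above it, lay 1086 of 14840 cells for the absorptive list. For the dividing list it was 794 cells and for the stem list 1814. The stem-like cells numbered 940 in cecum and 2815 in colon, the dividing cells 1104 and 677, and the absorptive-like cells 1443 and 804. Median depth was 13518.5 transcripts in cecal stem-like cells, 18795 in dividing cells and 13207 in absorptive-like cells, with median mitochondrial shares of 0.262%, 0.329% and 0.678%. Immune markers other than Cd74 summed to between 0 and 9.0 counts per 1000000 transcripts (CPM) in cecal absorptive-like cells. Cells with at least 5 per 10000 from these same markers had been left out of the class, so this sum is no separate check of it. Levels below are CPM of 1 class in 1 sample, from counts summed over its cells. Tests are edgeR's quasi-likelihood test on those sums with Benjamini-Hochberg adjustment over all genes tested, called at an adjusted p under 0.05.

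The enzymes of the pathway were lowest in stem-like cells and high in both dividing and absorptive-like cells. Summed over the 19 enzymes, cecal dividing cells had 1000 ± 185 CPM (SD, n = 16), stem-like cells 421 ± 71.5 CPM (n = 16) and absorptive-like cells 1280 ± 263 CPM (n = 14). In colon, the sums were 962 ± 114 CPM in dividing cells, 364 ± 22.2 CPM in stem-like cells and 1210 ± 196 CPM in absorptive-like cells (n = 8 each). Stem-like cells were the lowest of the 3 classes in 14 of 14 cecal samples and in 8 of 8 colon samples. The dividing sum was 1.53 to 3.14 times the stem-like sum of its own sample in cecum and 2.31 to 3.09 times in colon. The absorptive-like sum was 1.94 to 4.26 times the stem-like sum in cecum and 2.68 to 3.92 times in colon. Between the upper classes the order was less fixed: absorptive-like cells were above dividing cells in 11 of 14 cecal and 7 of 8 colon samples. Goblet-like cells, the mucus producers, had 1060 ± 246 CPM in cecum (n = 12) and 1150 ± 361 CPM in colon (n = 8), and the 3 colon samples with enough tuft-like cells had 701 ± 186 CPM.

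**Figure D1:**
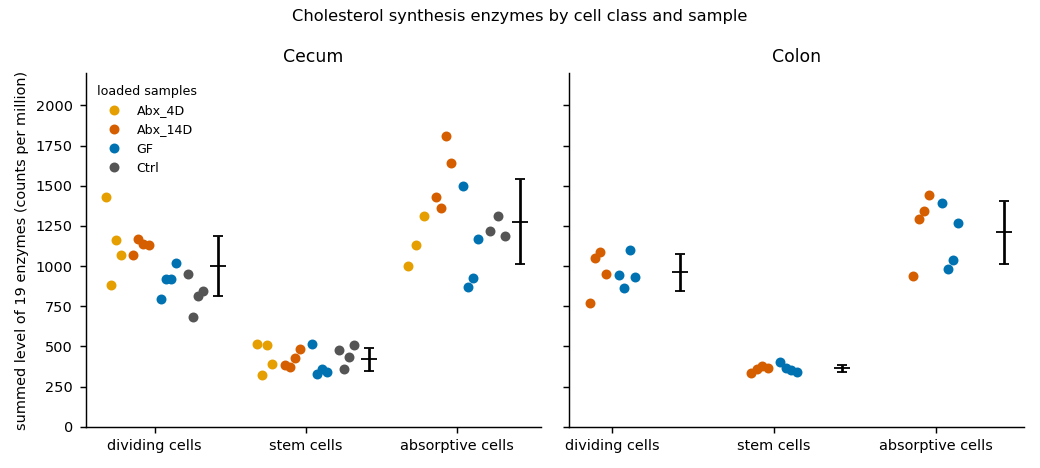
Summed level of the 19 enzymes (CPM, y axis) by cell class (x axis) in cecum and colon. Each point is 1 sample, coloured by condition, and bars are means ± SD; all stem-like points lie below the dividing and absorptive-like points of their own sample, with means of 421 CPM in cecum and 364 CPM in colon.

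Stem-like cells were first set against dividing cells within the same samples, a contrast added after the data had been seen. The dividing gate set no limit on stem cell markers. These summed to 1180 to 2840 CPM in cecal dividing cells and 3870 to 4760 CPM in cecal stem-like cells. In colon GF and Abx_14D they summed to 1970 to 3520 CPM and 4160 to 5470 CPM. In cecum, 18 of 23 members tested were higher in dividing cells and 1 was lower, where 26.6% of all genes tested were higher and 27.9% lower. In colon, 21 of 26 were higher and 0 lower, where 23.1% of all genes were higher and 20.4% lower (21 and 0 by DESeq2, and 21 and 1 at an unadjusted p under 0.05). Of all 10934 genes, 5553 had such an unadjusted p in either direction. The median log2 fold change over the members was 1.04 in cecum and 0.94 in colon, beside -0.01 and 0.01 over all genes.

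Among the mevalonate steps, Hmgcs1, which makes HMG-CoA, had a lowest, median and highest value of 124, 228 and 370 CPM in cecal dividing cells, against 27.9, 78.7 and 131 CPM in stem-like cells. In colon it had 153, 241 and 323 CPM in dividing cells, against 47.6, 56.3 and 85.4 CPM in stem-like cells. The ranges met in cecum but every one of the 16 samples was higher in its dividing cells, and in colon the ranges were apart. The log2 fold change was 1.56 ± 0.10 (SE; adjusted p = 1.2e-13, edgeR) in cecum and 1.94 ± 0.09 (adjusted p = 3.1e-13) in colon. Idi1, the isomerase of isopentenyl diphosphate, rose by 1.65 ± 0.14 and 2.00 ± 0.14 in the same order, and Acat2, the cytosolic acetoacetyl-CoA thiolase, by 1.76 ± 0.14 and 1.51 ± 0.13. Mvd, which decarboxylates mevalonate diphosphate, rose by 1.19 ± 0.19 and 0.77 ± 0.22. Mvk and Pmvk, the kinases of this stretch, were too low to be tested in cecal stem-like cells and rose by 1.5 ± 0.22 and 0.90 ± 0.18 in colon.

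Fdps, farnesyl diphosphate synthase, differed most in cecum. Its lowest, median and highest levels there were 24.8, 38.9 and 79.7 CPM in dividing cells, against 5.51, 7.85 and 10.2 CPM in stem-like cells, with no overlap. Colon had 21.7, 26.8 and 31.9 CPM in dividing cells, against 4.34, 5.68 and 6.51 CPM in stem-like cells. The log2 fold changes were 2.34 ± 0.13 (adjusted p = 1.3e-15) in cecum and 2.30 ± 0.13 (adjusted p = 1.1e-11) in colon. Ggps1, which makes geranylgeranyl diphosphate for protein prenylation, did not pass the test: -0.13 ± 0.09 (adjusted p = 0.24) in cecum and -0.01 ± 0.10 (adjusted p = 0.97) in colon. Its medians were 39.9 CPM in cecal dividing cells and 45.4 CPM in cecal stem-like cells, and the ranges overlapped almost fully.

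All 3 enzymes from farnesyl diphosphate to lanosterol rose. Sqle, squalene epoxidase, had 43.7, 70.7 and 111 CPM (lowest, median, highest) in cecal dividing cells, against 9.28, 23.3 and 37.6 CPM in stem-like cells, and rose by 1.65 ± 0.14 in cecum and 1.86 ± 0.10 in colon. Fdft1, squalene synthase, rose by 1.54 ± 0.14 and 1.35 ± 0.10, and Lss, lanosterol synthase, by 1.15 ± 0.17 and 1.15 ± 0.13. Of the later enzymes, Msmo1, the methylsterol monooxygenase, had 22.0, 64.2 and 88.3 CPM in cecal dividing cells, against 7.35, 13.7 and 51.1 CPM in stem-like cells. In colon Msmo1 had 40.1, 59.2 and 80.6 CPM in dividing cells, against 8.04, 9.99 and 14.8 CPM in stem-like cells. The increases were 2.00 ± 0.16 in cecum and 2.31 ± 0.12 in colon. Cyp51, the lanosterol demethylase, rose by 1.83 ± 0.12 and 1.94 ± 0.10, with ranges apart in both tissues. Nsdhl, Hsd17b7, Ebp and Sc5d rose by 0.78 to 1.04 in cecum and by 0.74 to 1.03 in colon. Dhcr7, which completes cholesterol, moved least among the tested enzymes of this stretch in cecum, at 0.34 ± 0.15 (adjusted p = 0.063), and rose by 0.43 ± 0.10 (adjusted p = 0.0026) in colon. Tm7sf2, a sterol reductase with low counts, was not tested in cecum and stood at -0.20 ± 0.22 in colon.

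The control genes split. Insig1, itself a target of SREBP, had 40.0, 67.4 and 133 CPM in cecal dividing cells, against 12, 25 and 36.7 CPM in stem-like cells, and rose by 1.48 ± 0.13 in cecum and 1.71 ± 0.12 in colon. Srebf2 rose by 0.63 ± 0.07 and 0.74 ± 0.07, and Srebf1 by 0.41 ± 0.11 and 0.45 ± 0.11. Scap and Insig2 did not pass the test in either tissue: Scap stood at -0.06 ± 0.09 in cecum and 0.03 ± 0.09 in colon, and Insig2 at 0.12 ± 0.11 and -0.08 ± 0.12. Stard4 rose by 0.51 ± 0.07 and 0.42 ± 0.06. Lpin1 was the single member lower in cecal dividing cells, with a median of 12.6 CPM against 17.9 CPM in stem-like cells (-0.63 ± 0.18, adjusted p = 0.0049), and did not pass in colon (-0.34 ± 0.16, adjusted p = 0.097). Genes of the stress response summed to 503 to 1460 CPM in cecal dividing cells of the Abx_14D, GF, Abx_4D and Ctrl samples, against 917 to 3430 CPM in stem-like cells, and their part in these differences was not tested.

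**Figure D2:**
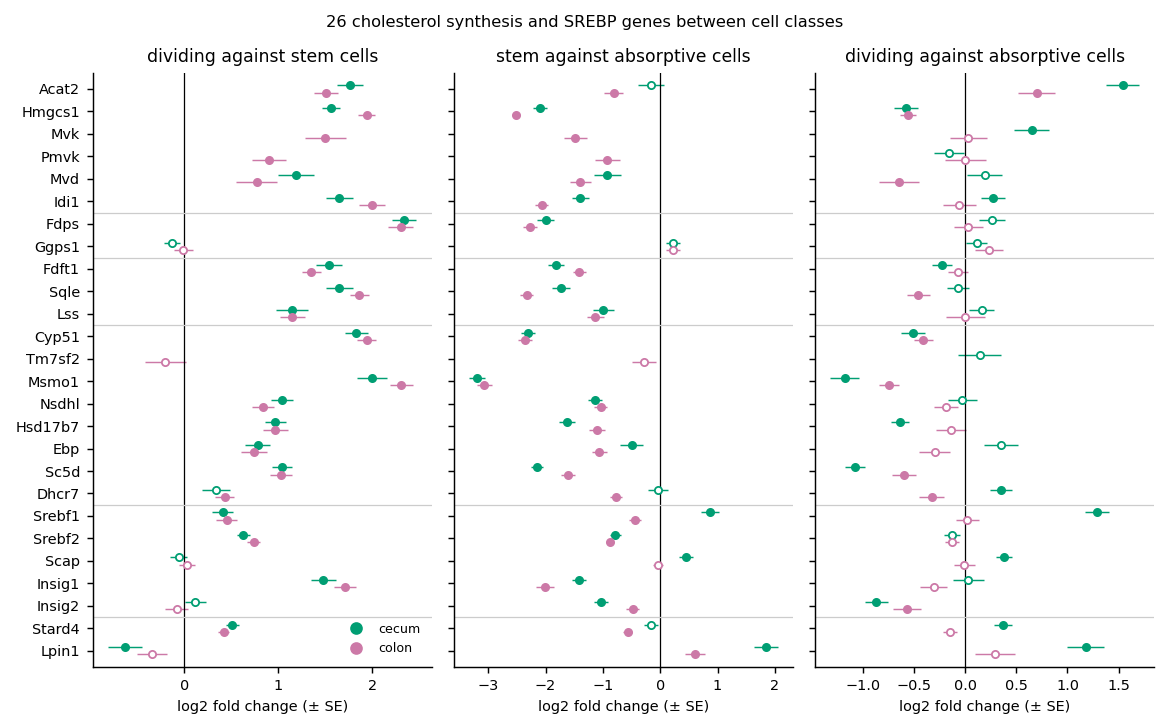
Log2 fold change with standard error (x axis) of each member (y axis, in pathway order, grey lines between roles) between cell classes in cecum and colon. Filled points passed an adjusted p of 0.05; in the dividing against stem-like panel 18 filled points in cecum and 21 in colon lie right of 0, with Fdps at 2.34 and 2.30.

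Stem-like cells also had less of most members than absorptive-like cells. In cecum, 3 of 23 members were higher and 16 lower in stem-like cells, where 57.4% of all genes tested were higher and 25.3% lower. In colon, 1 of 26 was higher and 22 lower, where 35.8% of all genes were higher and 28.3% lower. The cecal scale is shifted, since the median log2 fold change over all genes was 0.48 there and 0.07 in colon. With TMM scaling, which brings it to -0.02 in cecum, 2 members were higher and 20 lower. The shares of all genes above are on the library size scale only. The members' median was -1.03 in cecum and -1.08 in colon.

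Msmo1 showed the widest gap, with a lowest, median and highest level of 7.35, 12.6 and 51.1 CPM in cecal stem-like cells, against 62.2, 136 and 278 CPM in absorptive-like cells. Colon stem-like cells had 8.04, 9.99 and 14.8 CPM of Msmo1, against 56.9, 107 and 130 CPM in absorptive-like cells. The log2 fold changes were -3.19 ± 0.14 (adjusted p = 7.8e-16) in cecum and -3.07 ± 0.13 (adjusted p = 1.6e-12) in colon, and no group overlapped. Hmgcs1 fell by 2.10 ± 0.12 in cecum and by 2.51 ± 0.07 in colon. Cyp51 fell by 2.30 ± 0.12 and 2.36 ± 0.12, Fdps by 2.00 ± 0.15 and 2.27 ± 0.13, and Sqle by 1.73 ± 0.15 and 2.33 ± 0.12. Sc5d, the sterol desaturase, fell by 2.15 ± 0.11 in cecum and 1.61 ± 0.12 in colon. Insig1 fell by 1.42 ± 0.12 and 2.01 ± 0.15, and Srebf2 by 0.78 ± 0.09 and 0.88 ± 0.06. Insig2, which did not pass in the dividing contrast, fell by 1.03 ± 0.12 in cecum and 0.48 ± 0.11 in colon.

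Lpin1 went the other way in both tissues. It had 13.6, 18.9 and 37.3 CPM in cecal stem-like cells, against 3.14, 5.56 and 22.7 CPM in absorptive-like cells, and rose by 1.84 ± 0.21 in cecum and 0.61 ± 0.17 in colon. Srebf1 had opposite signs in the 2 tissues. Cecal stem-like cells had 23.8, 35.0 and 66.6 CPM of Srebf1 against 10, 18.8 and 27 CPM in absorptive-like cells (0.87 ± 0.15, adjusted p = 1.1e-05). Colon stem-like cells had 23.6, 33.6 and 39.2 CPM against 31.5, 47.3 and 61.0 CPM in absorptive-like cells (-0.44 ± 0.11, adjusted p = 0.0027). The difference between these 2 contrasts was not itself tested. Scap rose by 0.45 ± 0.13 in cecal stem-like cells with scaling by library size and stood at -0.05 with TMM scaling, so its direction depends on the scaling. Dhcr7 passed in colon (-0.77 ± 0.11) and did not in cecum (-0.04 ± 0.18).

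Between dividing and absorptive-like cells the direction differed among enzymes on the library size scale, and with TMM scaling most members were lower in dividing cells. In cecum, 8 of 26 members were higher and 7 lower in dividing cells, where 60.1% of all genes tested were higher and 24.0% lower and the median over all genes was 0.51. With TMM scaling, which puts that median at 0.00, 3 members were higher and 14 lower. The shares of all genes given here are those with library size scaling. By sign alone, 15 members were positive and 11 negative (median 0.13), against 4 and 22 with TMM scaling (median -0.38) and 4 and 22 with DESeq2 (median -0.25). In colon, 1 of 25 was higher and 8 lower, where 34.8% of all genes were higher and 26.7% lower (with TMM scaling, 1 and 12). There 8 were positive and 17 negative, and 3 and 22 with either TMM scaling or DESeq2. Several late enzymes were lower: Msmo1 fell by 1.18 ± 0.14 in cecum and 0.75 ± 0.10 in colon, Sc5d by 1.08 ± 0.10 and 0.60 ± 0.12, and Cyp51 by 0.51 ± 0.12 and 0.41 ± 0.09. Hmgcs1 fell by 0.58 ± 0.12 and 0.56 ± 0.08, and Insig2 by 0.87 ± 0.11 and 0.57 ± 0.14. Acat2, the first enzyme, was higher in dividing cells of both tissues. It had a lowest, median and highest level of 16.2, 34.8 and 39.7 CPM in cecal dividing cells, against 4.4, 12 and 17.1 CPM in absorptive-like cells (1.54 ± 0.16, adjusted p = 2.9e-09), and rose by 0.70 ± 0.18 in colon. In cecum Srebf1 rose by 1.29 ± 0.12 and Lpin1 by 1.18 ± 0.18, whereas in colon they stood at 0.02 ± 0.11 and 0.29 ± 0.20. Idi1, Dhcr7, Scap and Stard4 were called higher in cecum, at 0.27 to 0.38, and turned to between -0.24 and -0.14 with TMM scaling. The Idi1 call was lost when any of 9 of the 14 samples was left out, and that of Fdft1 (-0.23 ± 0.10) without Abx_14D 1, Abx_14D 3, Abx_14D 4, Ctrl 2 or GF 2. In colon Mvd (-0.65 ± 0.20) lost its call without GF 1, and Dhcr7 (-0.33 ± 0.12) without Abx_14D 1 or Abx_14D 4.

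Followed along the share of absorptive markers, instead of across a threshold, the summed enzymes climbed in both tissues, but in cecum many single enzymes did not. Cells outside the goblet, tuft, enteroendocrine, immune and dividing gates were binned by that share. In cecum the 19-enzyme sum was 519 ± 90.2 CPM below 12.5 per 10000 (n = 16), 707 ± 103 CPM up to 25, 1090 ± 291 CPM up to 50, 1140 ± 267 CPM up to 100, 1250 ± 351 CPM up to 200 and 1570 ± 380 CPM above 200 (n = 6). In colon it was 388 ± 32.9, 537 ± 44.3, 716 ± 107 and 1200 ± 184 CPM over the first 4 bins (n = 8 each), and the bin above held 50 cells of 2 samples. Msmo1 averaged 21.5 ± 8.20 CPM in the lowest cecal bin and 258 ± 112 CPM in the highest, and Sc5d 21.4 ± 6.89 and 114 ± 8.85 CPM. Acat2, by contrast, stayed between 9.54 and 20 CPM, and Ggps1 between 37.5 and 49.6 CPM. Lss, Mvd, Mvk, Pmvk, Nsdhl and Tm7sf2 were highest in the middle cecal bins. Lss averaged 18.6 CPM in the lowest bin, 36.9 CPM from 25 to 50 per 10000 and 19.3 CPM in the highest, and Mvk 6.37, 12.1 and 8.18 CPM in the same bins. Dhcr7 averaged 58.6 CPM in the lowest cecal bin and 56.0 CPM in the highest. In colon these 7 enzymes were higher in the fourth bin than in the lowest, as with Dhcr7 at 93.3 and 44.6 CPM, and Ggps1 stood at 32.9 and 40.1 CPM. Srebf1 averaged 37.4 ± 9.81 CPM in the lowest cecal bin, 44.4 CPM in the next and 10.9 ± 3.43 CPM in the highest, and Lpin1 13.4 ± 4.28, 18.8 and 1.59 ± 1.40 CPM. In colon Srebf1 averaged 35.1, 38.8, 42.7 and 50.6 CPM over the first 4 bins. Fewer samples fill the upper bins, so these averages are a description and carry no test.

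**Figure D3:**
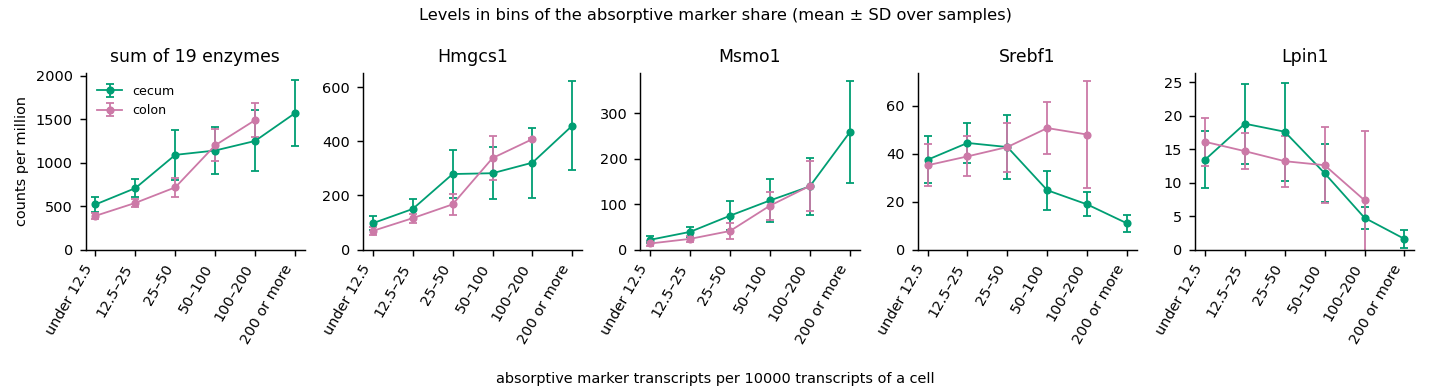
Level (CPM, y axis) of the 19-enzyme sum and of single members by bin of absorptive marker share (transcripts per 10000, x axis) in cecum and colon, as means over samples with SD. The cecal enzyme sum lies at 519 CPM in the lowest bin and 1570 CPM in the highest, while Lpin1 lies at 13.4 and 1.59 CPM.

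Other genes of sterol synthesis and SREBP processing were measured beside the 26, and those given here were chosen after their values were seen. Erg28, a scaffold protein of sterol synthesis in yeast, rose by 1.02 ± 0.10 in cecal dividing cells against stem-like cells and by 0.80 ± 0.10 in colon. Aacs, which activates acetoacetate in the cytosol, rose by 0.61 ± 0.09 and 0.71 ± 0.10. Mbtps1 and Mbtps2, the proteases that release SREBP, were lower, at -0.34 ± 0.07 and -0.33 ± 0.08 in cecum and -0.20 ± 0.08 and -0.25 ± 0.08 in colon.

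Genes of sterol efflux and storage were measured beside those of synthesis. Of the 16 listed genes of sterol uptake, storage, efflux and LXR, 5 of 9 tested were lower in cecal dividing cells than in stem-like cells and 5 of 11 in colon, and the others did not pass, where 27.9% of all genes were lower in cecum and 20.4% in colon. Abca1, which exports cholesterol, averaged 6.41 ± 3.85 CPM in cecal dividing cells and 34.9 ± 11.2 CPM in stem-like cells (-2.39 ± 0.20), and 34.0 ± 6.89 CPM and 111 ± 20.8 CPM in colon (-1.69 ± 0.11). Abcg1, another exporter, fell by 1.95 ± 0.24 in colon. Soat1, which esterifies cholesterol for storage, fell by 1.60 ± 0.14 and 0.72 ± 0.12, and Mylip, a ubiquitin ligase induced by the sterol receptor LXR, by 0.84 ± 0.10 and 0.45 ± 0.12. In stem-like against absorptive-like cells, the same list had 6 of 10 higher and 2 lower in cecum, where 57.4% of all genes were higher and 25.3% lower. In colon it had 4 of 12 higher and 4 lower, where 35.8% were higher and 28.3% lower, so the list as a whole did not lean one way there. In this contrast Abca1 rose by 4.36 ± 0.22 in cecum and 2.29 ± 0.17 in colon, and Mylip by 2.50 ± 0.17 and 1.00 ± 0.14. Fatty acid synthesis was mixed: of 13 genes, 7 of 12 tested were higher and 2 lower in cecal dividing cells than in stem-like cells, and 8 of 13 higher and 2 lower in colon, where 26.6% and 23.1% of all genes were higher in cecum and colon. Scd2, a desaturase, rose by 1.64 ± 0.08 and 1.05 ± 0.08, and Acss2, the cytosolic acetyl-CoA synthetase, fell by 0.68 ± 0.08 and 0.52 ± 0.06. Of the 12 isoprenoid-using genes, 2 of 10 tested were higher and 1 lower in cecum, and 2 of 12 higher and 1 lower in colon, shares below those of all genes, with Pdss1 at 0.29 ± 0.06 and 0.28 ± 0.07. These lists were drawn up with earlier results of these data known.

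The conditions were compared within 1 class at a time, with 3 or 4 samples in each group. The comparisons with Ctrl share the same Ctrl samples, and those with Abx_14D the same Abx_14D samples. In cecal absorptive-like cells the 19-enzyme sum was 999 to 1310 CPM in Abx_4D (n = 3), 1360 to 1810 CPM in Abx_14D (n = 4), 872 to 1500 CPM in GF (n = 4) and 1190 to 1310 CPM in Ctrl (n = 3). The Abx_14D range lay above those of Abx_4D and Ctrl. Ctrl 1 and Abx_4D 2 held 13 and 11 absorptive-like cells and were not used in this class.

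For Abx_14D against Ctrl in cecal absorptive-like cells, 3 of 26 members were higher and 0 lower, where 3.75% of all genes tested were higher and 3.39% lower. Insig1, the SREBP retention protein, had 72.6, 88.1, 141 and 99.1 CPM in Abx_14D, against 45.5, 46.5 and 41.4 CPM in Ctrl. All Abx_14D samples exceeded all Ctrl samples (1.21 ± 0.28, adjusted p = 0.0072). Hsd17b7, a sterol ketoreductase, had 61.0, 61.5, 70.3 and 62.7 CPM in Abx_14D, against 39.8, 32.3 and 42.8 CPM in Ctrl (0.76 ± 0.22, adjusted p = 0.035). Stard4 had 180, 150, 232 and 240 CPM in Abx_14D, against 142, 130 and 112 CPM in Ctrl (0.68 ± 0.20, adjusted p = 0.042). In both genes the groups did not overlap. Ctrl 1, not tested for its 13 cells, had 105 CPM of Insig1, 84.3 CPM of Hsd17b7 and 114 CPM of Stard4, and so would have overlapped with Abx_14D in the first 2. The calls depended on single samples. Hsd17b7 and Stard4 lost theirs without any 1 of 5 samples (Abx_14D 3, Abx_14D 4 or any of the 3 Ctrl samples), Insig1 lost its call without Ctrl 4 (adjusted p = 0.066), and without Abx_14D 3 and 4, the samples with over 0.5% mitochondrial transcripts, 0 members were called. With TMM scaling Insig1 alone passed (1.13, adjusted p = 0.014), and over the alternatives its adjusted p ran from 8.6e-05 to 0.18. A further 4 members had higher values and Lpin1 a lower one at an unadjusted p under 0.05, among them Idi1 (0.98 ± 0.31, adjusted p = 0.056). Of all 9343 genes, 1872 had such a p in either direction.

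For Abx_4D against Ctrl in the same class, 0 of 26 members were called by edgeR in either direction, where 1.65% of all genes were higher and 2.24% lower. At an unadjusted p under 0.05 there were 0 higher and 2 lower, beside 1462 of all 9343 genes in either direction. DESeq2 called 0 members higher and 1 lower. The largest difference was Dhcr7, with 48.0, 22.0 and 43.2 CPM in Abx_4D, against 59.7, 99.5 and 56.3 CPM in Ctrl (-1.06 ± 0.31, adjusted p = 0.055). Its groups did not overlap, and DESeq2's single call was this gene. The next were Lpin1 at -0.87 and Tm7sf2 at 0.82.

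For GF against Ctrl, 1 of 26 members was higher and 0 lower, where 6.28% of all genes were higher and 5.51% lower. The members' share thus did not exceed that of all genes in either direction. Stard4 had 245, 164, 196 and 216 CPM in GF, against 142, 130 and 112 CPM in Ctrl (0.69 ± 0.20, adjusted p = 0.026). All GF samples were above all Ctrl samples. Its call was lost without Ctrl 3, Ctrl 4, GF 1 or GF 4. Stress genes summed to 310 to 433 CPM in GF and 688 to 1020 CPM in Ctrl, also without overlap, and their part in this difference was not tested. With TMM scaling, which takes the median over all genes to 0.03 where it was 0.16, 1 member was higher and 3 lower. The lower ones were Msmo1 at -0.93, Fdps at -0.86 and Insig2 at -0.58. The shares of all genes given for this comparison are those with library size scaling.

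GF and Abx_14D were also compared with each other. In cecal absorptive-like cells 0 of 26 members were higher in GF and 2 lower, where 0.642% of all genes were higher and 1.87% lower. Msmo1 had 121, 62.2, 78.0 and 84.4 CPM in GF, against 145, 178, 278 and 203 CPM in Abx_14D (-1.27 ± 0.26, adjusted p = 0.0046). Fdft1 had 70.5, 69.2, 53.4 and 59.8 CPM in GF, against 110, 109, 110 and 107 CPM in Abx_14D (-0.81 ± 0.17, adjusted p = 0.0052). Neither gene overlapped between the groups, and both calls held when any single sample was left out. They were lost without the samples of over 0.5% mitochondrial transcripts, which include 2 of the 4 Abx_14D samples (adjusted p = 0.34 for Msmo1 and 0.17 for Fdft1, the range over the alternatives being 5.8e-08 to 0.34 and 0.00062 to 0.25). Of the 26 members, 19 had a negative and 7 a positive log2 fold change, with a median of -0.15 beside 0.05 over all genes. Absorptive markers summed to 11000 to 15700 CPM in GF and 11300 to 23300 CPM in Abx_14D, and stress genes to 310 to 433 CPM in GF and 434 to 1350 CPM in Abx_14D. Their part in the differences was not tested.

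In cecal dividing cells a single member passed. For Abx_4D against Ctrl, 1 of 26 members was higher and 0 lower, where 0.0485% of all genes were higher and 0.194% lower. For Abx_14D against Ctrl it was also 1 higher and 0 lower, where 0.388% were higher and 1.05% lower. The gene was Hmgcs1 in both. It had 370, 235, 324 and 238 CPM in Abx_4D, 221, 305, 275 and 261 CPM in Abx_14D, 183, 213, 202 and 245 CPM in GF, and 166, 161, 124 and 170 CPM in Ctrl. All samples of the other 3 conditions lay above all Ctrl samples. The log2 fold change was 0.92 ± 0.17 (adjusted p = 0.011) in Abx_4D and 0.78 ± 0.17 (adjusted p = 0.015) in Abx_14D. The Abx_4D call was lost without Abx_4D 1, Abx_4D 3 or Ctrl 2 (adjusted p up to 0.064), and the Abx_14D call without Abx_14D 2, Abx_14D 3 or Ctrl 2 (up to 0.077). Stricter gates took both above the threshold (0.18 and 0.20, the highest over the alternatives, the lowest being 4.6e-05 and 0.0012).

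Other members leaned the same way without passing. In Abx_14D against Ctrl, 22 of 26 log2 fold changes were positive, with a median of 0.27 beside 0.04 over all genes, and 6 members were higher at an unadjusted p under 0.05. Of all 10317 genes, 1104 had such a p in either direction. Cyp51 had 135, 136, 127 and 155 CPM in Abx_14D, against 80.7, 103, 71.6 and 67.9 CPM in Ctrl, with no overlap (0.78 ± 0.21, adjusted p = 0.071). In Abx_4D against Ctrl, 19 of 26 were positive with a median of 0.21 beside 0.03, and 7 had an unadjusted p under 0.05, as did 789 of all 10317 genes. The enzyme sum was 883 to 1430 CPM in Abx_4D, 1070 to 1170 CPM in Abx_14D, 793 to 1020 CPM in GF and 683 to 949 CPM in Ctrl. In stem-like cells of the same samples it was 323 to 516, 374 to 484, 328 to 517 and 360 to 507 CPM in the same groups, all ranges overlapping.

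For GF against Ctrl in dividing cells, 0 of 26 members were called by edgeR, where 0.795% of all genes were higher and 1.35% lower. At an unadjusted p under 0.05 there was 1 higher and 0 lower, beside 1320 of all 10317 genes in either direction, and DESeq2 called 0 members. Hmgcs1 stood at 0.44 ± 0.17 (adjusted p = 0.24), followed by Nsdhl at 0.41 and Cyp51 at 0.40. For GF against Abx_14D, 0 of 26 were called by edgeR and by DESeq2, where 0% of all genes were higher and 0.00969% lower. At an unadjusted p under 0.05 there were 0 higher and 5 lower, beside 798 of all 10317 genes in either direction. The signs were nonetheless mostly negative, 23 of 26, with a median of -0.24 beside -0.02 over all genes. Insig1 was the largest at -0.62 ± 0.28, then Idi1 at -0.57 ± 0.23 and Ebp at -0.50.

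**Figure D4:**
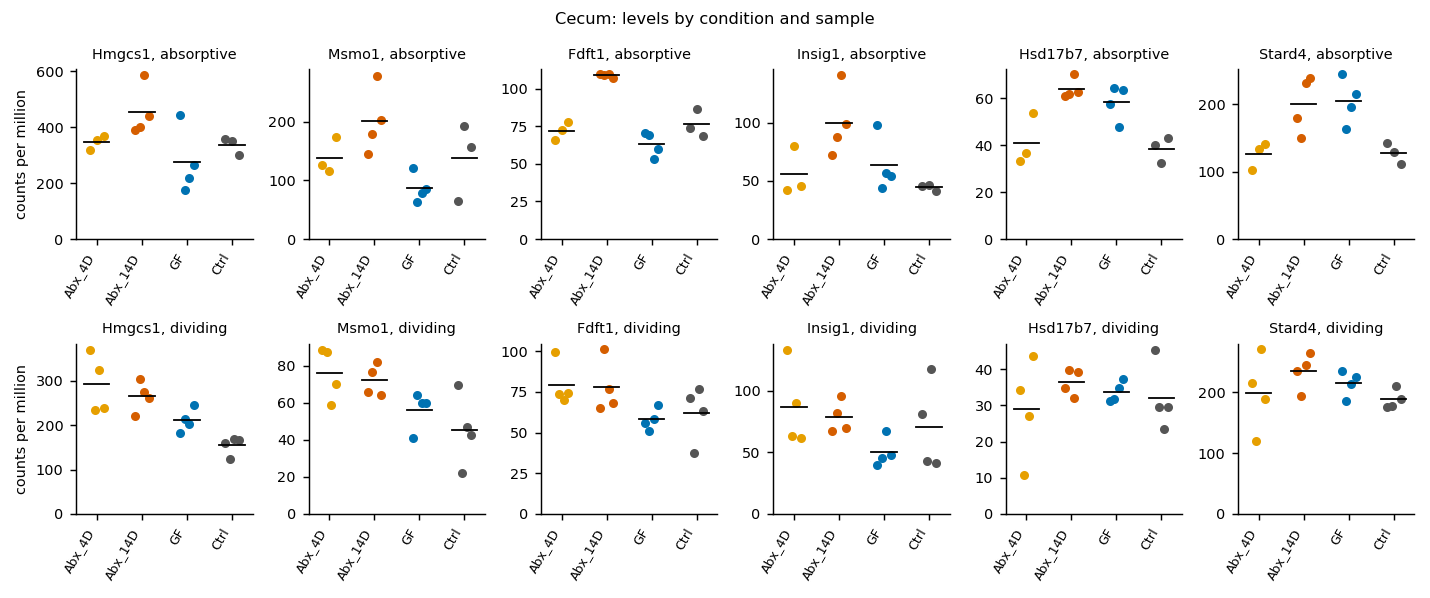
Level (CPM, y axis) of Hmgcs1, Msmo1, Fdft1, Insig1, Hsd17b7 and Stard4 in cecal absorptive-like cells (upper row) and dividing cells (lower row) for Abx_4D, Abx_14D, GF and Ctrl (x axis). Each point is 1 sample and lines are means; Fdft1 in absorptive-like cells lies at 107 to 110 CPM in Abx_14D and 53.4 to 70.5 CPM in GF.

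In colon, GF did not differ from Abx_14D in any member at the threshold. In absorptive-like cells 0 of 25 were called by edgeR, by DESeq2 or at an unadjusted p under 0.05, where 0.129% of all genes were higher and 0.959% lower. An unadjusted p under 0.05 was found for 1176 of all 10113 genes. The largest values were Lpin1 at -0.48, Ggps1 at -0.45 and Fdft1 at -0.40. Msmo1, called in cecum, had 111, 60.9, 82.1 and 130 CPM in colon GF, against 56.9, 129, 107 and 126 CPM in Abx_14D, with overlapping groups. In dividing cells 0 of 25 were called by edgeR and DESeq2, where 0.0312% of all genes were higher and 0.384% lower. There 2 members were higher and 0 lower at an unadjusted p under 0.05: Idi1 (0.61 ± 0.19, adjusted p = 0.36) and Scap (0.48 ± 0.18, adjusted p = 0.53). Of all 9627 genes, 712 had such a p in either direction. Whether GF and Abx_14D differ by another amount in colon than in cecum was tested as an interaction. It passed for 0 of 26 members in absorptive-like cells (lowest adjusted p 0.43, 3 at an unadjusted p under 0.05) and 0 of 26 in dividing cells (lowest 0.39, 4 unadjusted), where 10 of 10556 and 0 of 10652 genes passed. The differences in Msmo1 and Fdft1 are thus not shown to be particular to cecum.

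Colon and cecum were compared within Abx_14D and within GF. In absorptive-like cells the scale is again shifted, with a median over all genes of 0.37 in Abx_14D and 0.33 in GF. Within Abx_14D, 3 of 26 members were higher in colon and 3 lower, where 39.4% of all genes were higher and 13.6% lower. Within GF, 3 were higher and 3 lower, where 35.8% were higher and 13.7% lower. Under neither condition did the members' share exceed that of all genes in either direction. With TMM scaling the counts became 2 higher and 9 lower in Abx_14D, and 1 and 6 in GF. The shares of all genes above are on the library size scale and not on that of TMM. Absorptive markers summed to 7610 to 8970 CPM in the colon cells of this class and 11000 to 23300 CPM in the cecal ones, and stem cell markers to 438 to 1440 CPM and 79.9 to 227 CPM. Marker levels of the class thus differed between the tissues, and their part in the differences was not tested.

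Srebf1 was higher in colon under both conditions and both scalings. It had 38.3, 61.0, 53.5 and 36.5 CPM in colon and 26.1, 26.7, 19 and 21 CPM in cecum within Abx_14D (1.09 ± 0.25, adjusted p = 0.00083, or 0.74 with TMM scaling). Within GF it had 50.3, 31.5, 47.3 and 34.1 CPM in colon and 18.5, 10, 22.5 and 24.6 CPM in cecum (1.05 ± 0.25, adjusted p = 0.0015, or 0.75 with TMM scaling). The tissues did not overlap in either. Over the alternatives the adjusted p of Srebf1 ran from 7.3e-05 to 0.63 within Abx_14D and from 0.00021 to 0.93 within GF. Dhcr7 rose by 0.68 ± 0.19 and 0.65 ± 0.19 with scaling by library size, but stood at 0.35 and 0.34 with TMM scaling, where neither passed. Lpin1 rose by 1.56 ± 0.38 within Abx_14D, and Acat2 by 0.75 ± 0.30 within GF.

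Hsd17b7 was lower in colon under both conditions. It had 21.3, 45.4, 38.4 and 61.6 CPM in colon and 61.0, 61.5, 70.3 and 62.7 CPM in cecum within Abx_14D (-0.68 ± 0.25, adjusted p = 0.027), and 41.9, 20.2, 31.5 and 39.2 CPM in colon and 57.5, 64.2, 47.8 and 63.2 CPM in cecum within GF (-0.81 ± 0.26, adjusted p = 0.011). Its ranges met within Abx_14D and were apart within GF, and the calls were lost without colon Abx_14D 1 or cecum Abx_14D 3, and without colon GF 2. Msmo1 fell by 0.98 ± 0.26 and Cyp51 by 0.67 ± 0.19 within Abx_14D. Sc5d fell by 0.66 ± 0.22 and Ggps1 by 0.61 ± 0.25 within GF. Sc5d lost its call without colon GF 2. Acat2 lost its call without cecum GF 1, cecum GF 2, colon GF 1, colon GF 2 or colon GF 4, and Ggps1 without cecum GF 1, cecum GF 4, colon GF 1, colon GF 2 or colon GF 4.

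**Figure D5:**
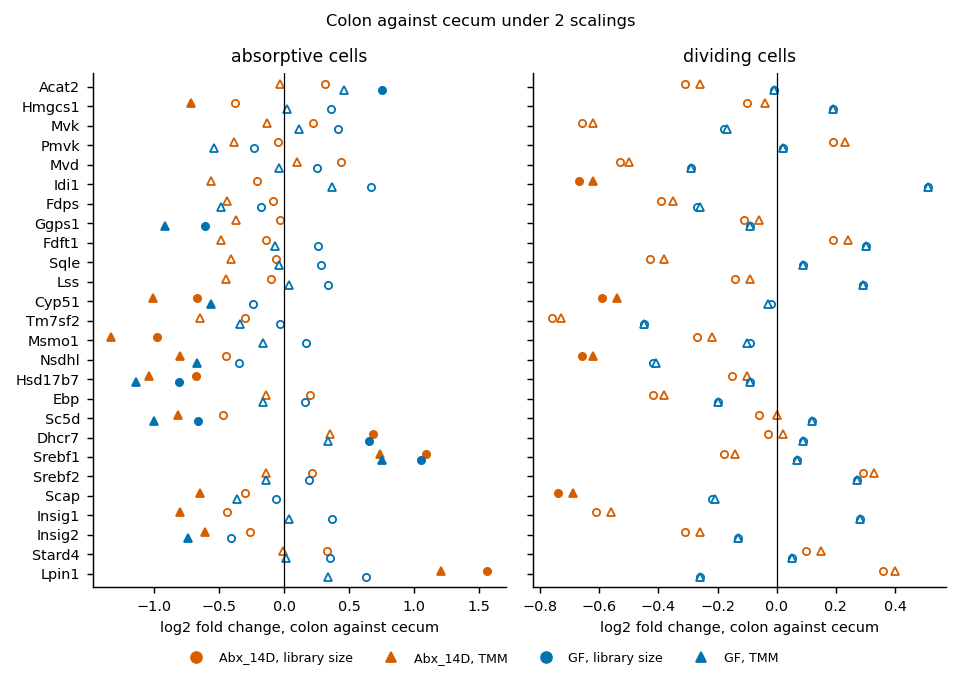
Log2 fold change of colon over cecum (x axis) for each member (y axis) in absorptive-like and dividing cells within Abx_14D and GF. Circles use library size scaling, triangles TMM scaling, and filled symbols passed an adjusted p of 0.05; Srebf1 lies at 1.09 and 1.05 in absorptive-like cells, and 0.74 and 0.75 with TMM scaling.

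In dividing cells, cell cycle markers summed to 4220 to 5290 CPM in colon and 4300 to 5780 CPM in cecum. Stem cell markers in the same cells summed to 1970 to 3510 CPM in colon and 1530 to 2350 CPM in cecum within Abx_14D, and to 2890 to 3520 CPM and 1790 to 2840 CPM within GF, where the tissues did not overlap. Their part in the differences was not tested. Here 0 of 26 members were higher in colon and 4 lower within Abx_14D, where 6.76% of all genes were higher and 6.59% lower. Scap fell by 0.74 ± 0.20, Idi1 by 0.67 ± 0.18, Nsdhl by 0.66 ± 0.18 and Cyp51 by 0.59 ± 0.17. Cyp51 had 77.2, 95.6, 105 and 92.2 CPM in colon and 135, 136, 127 and 155 CPM in cecum, with no overlap. Each of the 4 calls was lost without colon Abx_14D 1. Scap and Nsdhl also lost theirs without cecum Abx_14D 3, and Idi1 and Cyp51 without cecum Abx_14D 4, Idi1 further without colon Abx_14D 2. Without the samples of over 0.5% mitochondrial transcripts, 1 member was called within Abx_14D. Within GF, 0 of 26 members were called by edgeR and by DESeq2, where 5.05% of all genes were higher and 3.65% lower. At an unadjusted p under 0.05 there was 1 higher, Idi1 (0.51 ± 0.18), and 1 lower, Nsdhl (-0.42 ± 0.18). Of all 10652 genes, 2221 had such a p in either direction.

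Genes of the neighbouring lipid pathways were also compared between the tissues, without a test of the lists against the members. In absorptive-like cells 7 of 13 fatty acid synthesis genes were higher and 2 lower in colon within both Abx_14D and GF. On the shifted scale, 39.4% and 35.8% of all genes were higher there and 13.6% and 13.7% lower. In dividing cells the same list had 2 higher and 4 lower within Abx_14D, and 4 higher and 3 lower within GF. Of all genes, 6.76% and 5.05% were higher there and 6.59% and 3.65% lower. Fads2, a fatty acid desaturase, averaged 344 ± 77.1 CPM in colon and 11.3 ± 4.45 CPM in cecum within Abx_14D (SD, n = 4 each), a log2 fold change of 5.11 ± 0.28, and 4.71 ± 0.27 within GF. Acly, which supplies cytosolic acetyl-CoA from citrate, rose by 2.98 ± 0.19 and 2.96 ± 0.19, and Acss2 by 2.88 ± 0.18 and 2.93 ± 0.19. Of 11 tested genes of sterol uptake, storage, efflux and LXR, 6 were higher and 2 lower in absorptive-like cells within Abx_14D, and 7 and 2 within GF. The shares of all genes are those given above for this class. Abca1 rose by 4.35 ± 0.50 and 3.49 ± 0.49, and Soat1 by 2.34 ± 0.39 and 4.0 ± 0.44, whereas Lipa, the lysosomal acid lipase, fell by 2.05 ± 0.25 and 2.20 ± 0.25. Mbtps1 rose by 1.30 ± 0.20 and 0.84 ± 0.19 in colon. In dividing cells Abca1 rose by 2.61 ± 0.32 and 2.52 ± 0.33 in colon.

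Across conditions the neighbouring lists gave few calls. In cecal absorptive-like cells Soat1 averaged 7.33 ± 1.40 CPM in Abx_4D and 31.8 ± 4.67 CPM in Ctrl (SD, n = 3 each; -2.03 ± 0.53, adjusted p = 0.028). In GF it averaged 7.86 ± 6.19 CPM (n = 4; -1.77 ± 0.44 against Ctrl, adjusted p = 0.0083). Me1, the malic enzyme that supplies NADPH, fell in GF against Ctrl by 1.98 ± 0.39 in absorptive-like cells and by 2.38 ± 0.37 in dividing cells, and against Abx_14D by 1.59 ± 0.37 in absorptive-like cells. Mylip rose by 1.40 ± 0.35 and Nr1h3, which encodes the LXR alpha sterol receptor, by 1.14 ± 0.37 in GF against Ctrl.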

How the data were processed

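Single-cell transcript counts of 8 sublibraries were used as deposited: a matrix of raw counts per gene and cell made by the authors, with a cell table naming each cell's tissue, condition and sample number. Per the submitters' processing notes the build was mm39 and Seurat was used; the aligner, counter, versions and annotation: not given in the sources used here. Every sublibrary held all conditions, so the unit compared is the sample named in the cell table. Per the labels, sequencing was of polyA RNA with a whole-transcriptome split-pool kit, and 0 columns of other samples were present.

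Cells with at least 500 transcripts were kept. No doublet caller was run. A cell past the goblet, tuft, enteroendocrine or immune gate was left out of the absorptive, dividing and stem gates. Dividing and stem-like cells also had to lie below the absorptive threshold, and absorptive-like cells below the dividing one. Neither the dividing nor the absorptive gate set a limit on stem markers. Among kept cells, 937 share their well triplet with a cell of another sublibrary. Gate thresholds (50 per 10000 for absorptive markers, 20 for dividing, 20 for stem with dividing under 5, 30 for goblet, 10 for tuft, 10 for enteroendocrine, 5 for immune) were set after the distributions of marker shares had been seen. Within each sample, the counts of a class were added up if it had at least 20 cells. Sums were tested with edgeR 4.0.16 (quasi-likelihood, library size scaling, filterByExpr) in R 4.3.3, with Benjamini-Hochberg adjustment over all genes tested and a threshold of 0.05. The standard error is the log2 fold change divided by the root of its F statistic. Contrasts between classes carried the sample as a block; those in colon also used 1 Abx_4D sample. DESeq2 1.42.0 and TMM scaling were alternatives. The code was tested on simulated counts.

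The members and the other gene lists were chosen with earlier results of these data known. Named members are those past the threshold, up to 12 by size, or the 3 largest where none passed, and up to 4 genes per other list; further members are given to complete a role. The contrast of dividing with stem-like cells and the gate without Ceacam1 were chosen after seeing the data. Promoters and their coordinates come from RefSeq on GRCm38.p6, another build than that of the counts. Intervals of counting are not given, since the spread between samples was used. Colon Ctrl and colon Abx_4D entered no comparison between conditions. Some genes of the other lists are not reported here.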

Additional observations from a re-analysis of the deposited data

Results flagged for a closer look

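Idi1, the isomerase of isopentenyl diphosphate, had 44.0 CPM in dividing cells of colon Abx_14D 4, against 30.0 to 32.1 CPM in the other 3 samples of that group. The gap took up 0.846 of the group's range. It was the 1 outlying value among 41 groups of 4 samples examined, and chance alone flags about 1 in 20 such groups. Idi1 is among the members lower in colon than in cecum within Abx_14D in dividing cells.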

How the results depend on the processing

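The low level of the pathway in stem-like cells kept its direction and its count within 1.5 times under each alternative run, whereas the condition comparisons rest on few calls. The number of members called, in both directions together, moved as follows. For Abx_4D against Ctrl in cecal absorptive-like cells (0 called) it was 1 with TMM scaling, 1 with DESeq2, 1 with no filter on low counts, 1 without samples over 0.5% mitochondrial and 1 with the replicate block. For Abx_14D against Ctrl (3 called) it was 1 with TMM scaling, 0 without the high mitochondrial samples and 1 over all kept cells. For GF against Ctrl (1 called) it was 4 with TMM scaling, 4 with DESeq2, 2 with no filter, 3 with stricter gates, 0 over all kept cells and 3 with the gate without Ceacam1. For GF against Abx_14D (2 called) it was 4 with no filter, 0 without the high mitochondrial samples and 0 over all kept cells. For colon against cecum in absorptive-like cells within Abx_14D (6 called) it was 11 with TMM scaling, 10 with DESeq2, 1 with stricter gates, 3 without the high mitochondrial samples, 10 over all kept cells and 10 without Ceacam1, and within GF (6 called) 2 over all kept cells. In dividing cells, Abx_4D against Ctrl (1 called) gave 2 with DESeq2 and 2 with no filter. Abx_14D against Ctrl (1 called) gave 2, 2 and, without the high mitochondrial samples, 0. Colon against cecum within Abx_14D (4 called) gave 1 with stricter gates and 1 without the high mitochondrial samples. The cause was not tested.

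Directions turned for a few members. In cecal dividing against absorptive-like cells, Idi1 stood at -0.24 with TMM scaling and -0.10 with DESeq2, Dhcr7 at -0.16 and -0.03, Scap at -0.14 and -0.00, and Stard4 at -0.15 and -0.01. Scap stood at -0.05 in cecal stem-like against absorptive-like cells with TMM scaling. Over all kept cells, colon against cecum within GF gave Acat2 at -0.10 and Srebf1 at -0.03; these sums mix all classes.

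Leaving out each sample in turn gave 0 to 1 members for Abx_4D against Ctrl, 0 to 4 for Abx_14D against Ctrl, 0 to 2 for GF against Ctrl and 2 to 4 for GF against Abx_14D in cecal absorptive-like cells, and 0 for colon GF against Abx_14D. Colon against cecum gave 5 to 7 within Abx_14D and 2 to 7 within GF. In dividing cells it gave 0 to 2 for Abx_4D and 0 to 2 for Abx_14D against Ctrl, 0 for the 3 comparisons of GF, and 0 to 5 and 0 for colon against cecum within Abx_14D and GF. Between classes it gave 13 to 17, 18 to 20 and 19 to 20 in cecum (dividing against absorptive-like, stem-like against absorptive-like, dividing against stem-like), and 8 to 10, 23 to 24 and 21 in colon.

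Sample numbers were not taken as pairs in the main tests, since the labels tie them to nothing shared. Same-numbered samples nonetheless had the higher median correlation in both tissues, and whether they share anything was not tested. Deviations from the group means correlated at -0.16 to 0.331 between same-numbered cecal samples (11 of 24 pairs over 0.1, median 0.072) and at -0.345 to 0.261 between differently numbered ones (11 of 72, median -0.028). In colon it was 1 of 4 (0.036 to 0.146) and 0 of 12. Only samples of the same tissue were correlated, so colon and cecum samples of the same condition and number were not examined as pairs. Among cecal samples numbered 4, 5 of 6 pairs were over 0.1 (0.15 to 0.331), whereas not every cecal sample correlated best with its own number. The replicate block kept 22 of 24 calls of single members in the condition and tissue comparisons, and leaving the sample block out kept 103 of 106 in the class contrasts. Of 130 calls, 120 kept their direction and side of the threshold with DESeq2, 119 with TMM scaling, 130 with cells of at least 1000 transcripts, 128 with no filter and 114 without the high mitochondrial samples. With stricter gates 97 of 117 did. These tallies pool the 106 calls of the class contrasts with the 24 of the condition and tissue comparisons. Over all kept cells, run only for the condition and tissue comparisons of absorptive-like cells, 3 of 18 calls held, 13 lost the threshold and 2 turned. Settings that left fewer than 2 samples in a group gave no value.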
